A study of Mus musculus with 160 samples.

Results

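The insulin-like growth factor (IGF) axis was followed in single stromal cells of mouse bone marrow through 10 genes, the ligand Igf1, the receptors Igf1r, Igf2r and Ghr, the binding proteins Igfbp3, Igfbp4, Igfbp5 and Igfbp7, and the adaptors Irs1 and Irs2. They were chosen by name from 22866 distinct gene names in the deposited table. All 10 were found there under their own symbol, Igfbp5 in 2 rows that were summed and the others in 1 row each. One of the Igfbp5 rows reached 1 FPKM in 159 cells and the other in 1 cell. FPKM, the unit throughout, divides the sequenced fragments of a gene by its transcript length and the total mapped in that cell. This allows a rough comparison of levels between genes.

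The study holds 78 cells from old and 82 cells from young C57BL/6J mice, labelled as 24 months and 9 weeks old (2 years and 10 weeks in the protocol). Cells of both ages were sorted for the leptin receptor and CD140a (platelet-derived growth factor receptor alpha) and against CD45, Ter119 and CD31, then captured singly on microfluidic chips. The labels name no allele and no treatment, and they tie no cell to a mouse. Each age is therefore treated as 1 sample, age differences are unreplicated, and no test was made. Shares of cells carry 95% Clopper-Pearson (exact) intervals, which reflect counting error alone.

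RNA of the gated leptin receptor was found more often than that of gated CD140a. Cxcl12, the chemokine of the marrow niche, reached 1 FPKM in 77 of 78 old and 82 of 82 young cells, and Lepr in 71 and 78 cells, while Pdgfra (CD140a) was at that level in 30 old and 28 young cells. Ptprc (CD45), Pecam1 (CD31) and the other hematopoietic and endothelial markers examined reached 1 FPKM in 0 cells. Macrophages are a known source of IGF1, and their markers Csf1r, Aif1, C1qa, C1qb, Emr1 and Lyz2 reached it in 0 cells, whereas Cd68 did in 2 old and 3 young cells. The number of named genes at 1 FPKM was 1160 in the median old cell (range 193 to 2779) and 1114.5 in the median young cell (129 to 2129), and the read depth is unknown. Xist was found in 54 old and 0 young cells and a Y-linked gene in 0 old and 34 young cells. The protocol counts separate wells for each age. Age, sex-linked RNA and capture thus cannot be told apart in any comparison of the ages.

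In mammals growth hormone acts through its receptor Ghr and the kinase Jak2 to raise Igf1, and secreted IGF1 activates the receptor kinase Igf1r, which recruits Irs adaptors to signal through PI3K and Akt. Binding proteins hold IGFs outside the cell, in blood and matrix, and proteases such as pappalysin (Pappa) release them. In bone, IGF1 from stromal and osteoblast-lineage cells is known as a growth factor for those cells, and Igfbp4 and Igfbp5 are its abundant local carriers.

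The 10 genes divided into a ligand, a GH receptor and a binding protein that were lower in old cells, 1 binding protein that was higher, and 6 genes with smaller differences. By the difference of mean log2(FPKM + 1), old minus young, Igf1 stood at -1.76, Ghr at -1.31 and Igfbp3 at -1.25, while Igfbp5 stood at 1.29. The remaining values were -0.54 for Igfbp4, -0.34 for Igf1r, -0.07 for Irs1, 0.01 for Igf2r, 0.09 for Igfbp7 and 0.11 for Irs2. This measure weighs each cell alike and understates changes of genes absent from many cells. Differences of -1 or below were thus found for 3 of 10 members, against 4.87% of the 1272 genes that were at 1 FPKM in 25% of the cells of an age. Differences of 1 or above were found for 1 of 10 members, against 3.77% of those genes. Of the 10 members 6 lay below 0, close to the 53.5% of those genes that did so. The median difference was -0.21 over the members and -0.05 over those genes. Irs1 and Irs2 were under the 25% limit in both ages and the other 8 members passed it. Igf1r and Igfbp3 passed it only through young cells, which favours values lower in old cells. The counts of 10 members include those under the limit, unlike the 1272 genes. With a pseudocount of 10 in place of 1, which weighs low values less, 0 members (and 0.786% of those genes) lay at -1 or below, and Igfbp5 was still above 1, at 1.14. With a pseudocount of 0.1 the same limit held 3 members against 14.5% of those genes, and by the log2 ratio of mean FPKM 4 members against 19.8%. Those 4 include Igfbp7, at -4.70, a value that 1 young cell sets.

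**Figure D1:**
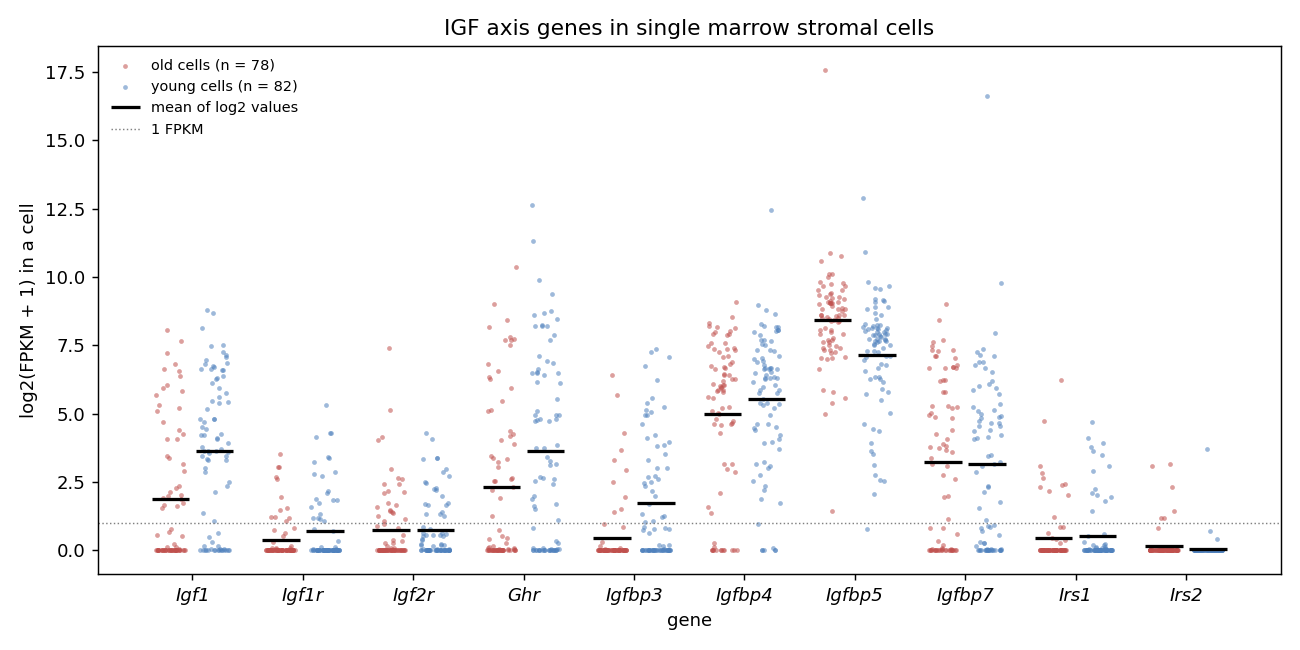
Each point is 1 cell, with log2(FPKM + 1) on the vertical axis and the 10 genes along the horizontal axis, old cells (n = 78) left and young cells (n = 82) right of each pair. Black lines are means of the log2 values, which stood at 1.88 in old and 3.64 in young cells for Igf1 and at 8.44 and 7.15 for Igfbp5, and the dotted line marks 1 FPKM. Cells of the ages overlap for every gene.

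**Figure D2:**
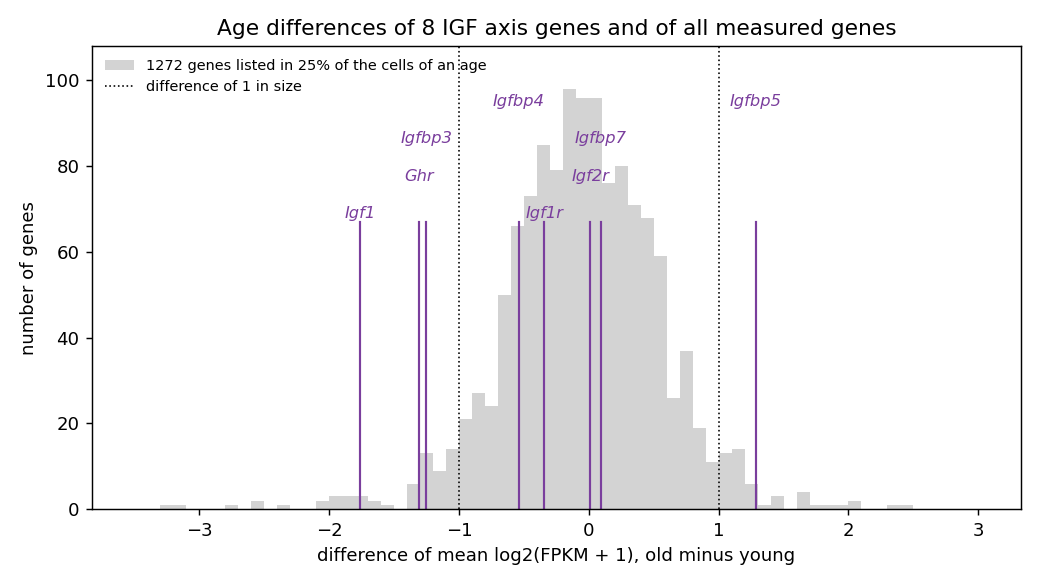
The grey histogram counts genes by the difference of mean log2(FPKM + 1), old minus young, over the 1272 genes at 1 FPKM in 25% of the cells of an age. Purple lines mark the 8 members that passed this limit, and dotted lines mark -1 and 1. Igf1, Ghr and Igfbp3 lie left of the lower dotted line and Igfbp5 right of the upper one.

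Igf1, the ligand, was listed, meaning 1 FPKM or more, by 34 of 78 old cells (43.6%, interval 32.4 to 55.3) and by 59 of 82 young cells (72.0%, interval 60.9 to 81.3). In old cells it ran from 0 through a median of 0.123 to 265 FPKM, and in young cells from 0 through a median of 12.2 to 446 FPKM. The ranges overlapped, and the young median lay above the third quartile of old cells, which was 9.71 FPKM. Among cells that listed it, the median was 16.9 FPKM in old and 26.9 FPKM in young cells, with overlapping quartile ranges of 3.47 to 59.5 and 11.3 to 97.1 FPKM. Its difference was 16th from the lowest of 1272 genes. In cells of middle gene number (the interquartile range over all cells, 37 old and 43 young) the difference was -1.73.

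The promoter of Igf1 is shown together with those of Igfbp3, also lower in old cells, and Igfbp5, higher in old cells, as the genes with the clearest differences in opposite directions for which RefSeq gives a single start. Each is the 250 bases before the start, 5′ to 3′ on the gene's strand, from RefSeq (GRCm38.p6): Igf1 at chr10:87860861-87861110 (plus strand), Igfbp3 at chr11:7213924-7214173 (minus) and Igfbp5 at chr1:72874866-72875115 (minus). Capitals mark matches on either strand to 6 motifs, in which N stands for any base. They were the TATA box TATAAA, the CCAAT box CCAAT, the GC box GGGCGG, the E-box CANNTG, the AP-1-like pattern TGANTCA and the cAMP response element TGACGTCA. No matches overlapped.
Igf1: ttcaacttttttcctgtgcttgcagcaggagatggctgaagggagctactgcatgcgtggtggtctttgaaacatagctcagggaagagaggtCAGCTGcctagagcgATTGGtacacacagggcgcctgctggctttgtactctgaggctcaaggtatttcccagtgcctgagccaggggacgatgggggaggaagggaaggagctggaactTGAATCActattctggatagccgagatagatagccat
Igfbp3: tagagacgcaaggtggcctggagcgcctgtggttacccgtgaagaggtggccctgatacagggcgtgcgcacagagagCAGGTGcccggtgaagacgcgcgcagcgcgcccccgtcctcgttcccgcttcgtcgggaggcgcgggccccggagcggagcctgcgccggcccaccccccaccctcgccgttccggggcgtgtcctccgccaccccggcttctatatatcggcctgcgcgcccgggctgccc
Igfbp5: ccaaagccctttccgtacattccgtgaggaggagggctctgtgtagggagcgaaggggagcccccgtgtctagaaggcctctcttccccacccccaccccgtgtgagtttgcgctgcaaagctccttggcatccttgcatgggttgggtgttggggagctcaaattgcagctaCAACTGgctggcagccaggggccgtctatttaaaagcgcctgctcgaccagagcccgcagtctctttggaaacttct

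An E-box was the only match in the Igfbp3 and Igfbp5 windows, with its first base 172 and 77 bases before the start, and 66.2% of 32851 RefSeq promoter windows of this length hold one. Igf1 had an E-box at 157, a CCAAT box at 142 and an AP-1-like match, TGAATCA, at 37 bases before its start. The last 2 of these motifs occur in 33.8% and 6.75% of windows. The windows of Igfbp3, Igfbp5 and Igf1 were 73.2%, 58.8% and 52.8% G or C, and the median of all windows was 52.4%. The E-box was the 1 motif present in all 3 windows, and which start these cells use was not measured.

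Among the receptors Ghr, the growth hormone receptor, differed most between the ages. It was listed by 35 of 78 old cells (44.9%, interval 33.6 to 56.6) and by 53 of 82 young cells (64.6%, interval 53.3 to 74.9). Values ran from 0 through a median of 0.263 to 1311 FPKM in old cells and from 0 through a median of 7.85 to 6397 FPKM in young cells, so the ages overlapped. One young cell held 42.1% of the FPKM of Ghr summed over young cells. The difference of mean log2 without the highest cell of each age was -1.30. In cells within the middle range of gene numbers Ghr was listed in 43.2% of old and 76.7% of young cells.

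Igf1r, the kinase receptor that transmits the IGF1 signal, was sparse in both ages. It was listed by 12 of 78 old cells (15.4%, interval 8.21 to 25.3) and by 22 of 82 young cells (26.8%, interval 17.6 to 37.8). The median was 0 in both, and the highest values were 10.5 FPKM in old and 39.1 FPKM in young cells. Igf2r, which clears IGF2 and carries mannose 6-phosphate cargo to lysosomes, was listed in 22 of 78 old cells (28.2%, interval 18.6 to 39.5) and 22 of 82 young cells (26.8%, interval 17.6 to 37.8). Its highest values were 167 FPKM in old and 18.7 FPKM in young cells. The mean log2 of Igf2r was 0.76 in old and 0.74 in young cells, the smallest difference of the 10 members.

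Of the binding proteins, Igfbp5, which also attaches to matrix and bone mineral, was the most abundant member of the axis at both ages and was higher in old cells. It was listed in 78 of 78 old cells (interval 95.4 to 100) and 81 of 82 young cells (interval 93.4 to 100). In old cells it ran from 1.73 through a median of 383 to 195362 FPKM, and in young cells from 0.692 through a median of 204 to 7662 FPKM. The ranges overlapped, with a ratio of medians, old over young, of 1.88. The quartiles were 194 and 596 FPKM in old cells and 80.1 and 287 FPKM in young cells. A single old cell, with 680 genes, held 84.8% of the FPKM of Igfbp5 summed over old cells. All named genes in that cell summed to 7384320 FPKM, against a median of 74370 over old cells. The mean of Igfbp5 was 2953 FPKM with that cell and 454 FPKM without it. In young cells it was 338 FPKM (247 without their highest cell). Within a cell Igfbp5 had a median rank of 34 among all named genes in old and 71.5 in young cells, and it was among the 100 highest genes in 64 old and 52 young cells. Its difference was 16th from the highest of 1272 genes, and it was 1.76 in cells within the middle range of gene numbers. All 7 alternatives examined for the age difference left it above 1. The highest, 3.12, was the log2 ratio of mean FPKM, which rests on the old cell that held 84.8%.

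Igfbp4, the local carrier that pappalysin cleaves, was second in level at both ages. It was listed in 64 of 78 old cells (82.1%, interval 71.7 to 89.8) and 75 of 82 young cells (91.5%, interval 83.2 to 96.5). Values ran from 0 through a median of 59.2 to 549 FPKM in old cells and from 0 through a median of 73.2 to 5545 FPKM in young cells, and the quartile ranges of the ages overlapped. Without cells that listed under 50% as many genes as the median cell of the same age its difference was -0.15, in place of -0.54.

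Igfbp3, the main IGF carrier of blood and a p53 target in human cells, was the binding protein with the widest gap in share. It was listed in 10 of 78 old cells (12.8%, interval 6.32 to 22.3) and 36 of 82 young cells (43.9%, interval 33 to 55.3). The median was 0 FPKM in old cells with a highest value of 84.1, and 0.605 FPKM in young cells with a highest value of 165. In cells that listed it the median was 7.82 FPKM in old and 11.7 FPKM in young cells. A share lower in old cells by 20 percentage points or more was found for Igf1 and Igfbp3, 2 of 10 members, against 3.54% of the 1272 genes. Ghr was just short of that limit, at -19.8 points. A share higher by 20 points was found for 0 members, against 1.81% of genes.

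Igfbp7, which binds IGFs weakly and is deposited in matrix and vessel walls, differed little. It was listed in 47 of 78 old cells (60.3%, interval 48.5 to 71.2) and 49 of 82 young cells (59.8%, interval 48.3 to 70.4), with medians of 10.3 and 7.61 FPKM and highest values of 511 and 100111 FPKM. One young cell held 96.9% of its FPKM summed over young cells, and by the ratio of means its log2 value turned to -4.70. The mean was 47.4 FPKM in old cells and 1260 FPKM in young cells, and 41.4 and 39.4 FPKM without the highest cell of each age.

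**Figure D3:**
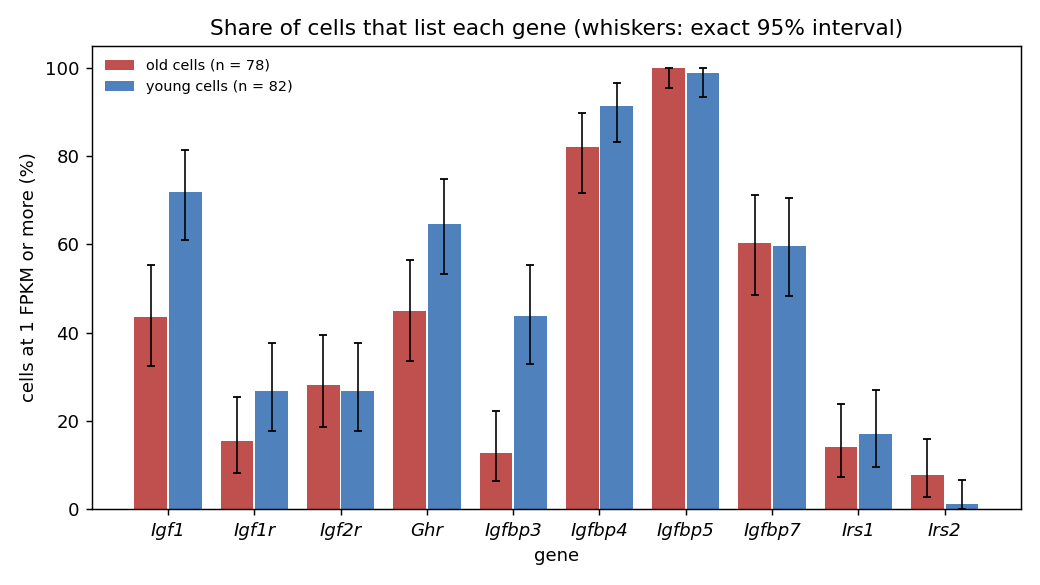
Bars give the share of cells at 1 FPKM or more in percent for each of the 10 genes, old cells (n = 78) left and young cells (n = 82) right, with exact 95% intervals as whiskers. The gaps between the ages are widest for Igf1 (32.4 to 55.3 and 60.9 to 81.3) and Igfbp3 (6.32 to 22.3 and 33 to 55.3). The whiskers reflect counting error alone and do not test a difference of age.

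The adaptors were sparse at both ages. Irs1 was listed in 11 of 78 old cells (14.1%, interval 7.26 to 23.8) and 14 of 82 young cells (17.1%, interval 9.66 to 27), with highest values of 74.4 and 24.8 FPKM. Irs2 was listed in 6 of 78 old cells (7.69%, interval 2.88 to 16) and 1 of 82 young cells (1.22%, interval 0.0309 to 6.61), with highest values of 7.95 and 12.1 FPKM. Irs1 or Irs2 was listed in 16 of 78 old cells (20.5%) and 14 of 82 young cells (17.1%). Of 12 old cells with Igf1r, 2 also listed Irs1 or Irs2, as did 6 of 22 young cells.

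By median level the members ran Igfbp5, Igfbp4, Igfbp7, Ghr, Igf1 and Igf2r in old cells and Igfbp5, Igfbp4, Igf1, Ghr, Igfbp7, Igfbp3 and Igf2r in young cells, with all others at a median of 0. The quartile ranges of Igfbp5 and Igfbp4 did not overlap in old cells (194 to 596 and 7.84 to 135 FPKM) and overlapped in young cells (80.1 to 287 and 16.2 to 150 FPKM). Those of Igf1, Ghr and Igfbp7 overlapped at both ages.

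Igfbp5 led the binding proteins in more old than young cells. Igfbp5 was the highest of the 4 in 68 of 78 old cells (87.2%, interval 77.7 to 93.7) and 58 of 82 young cells (70.7%, interval 59.6 to 80.3), and these intervals overlap. Igfbp4 was the highest in 8 old (10.3%, interval 4.53 to 19.2) and 18 young cells (22%, interval 13.6 to 32.5), Igfbp7 in 2 and 6 cells and Igfbp3 in 0 and 0. As a share of the 4 genes' total in a cell, Igfbp5 had a median of 82.4% in old cells (quartiles 61.8 and 93.8) and 64.4% in young cells (quartiles 39 and 80.5). In cells that listed both, the ratio of Igfbp5 to Igfbp4 had a median of 5.92 in 64 old cells and 1.93 in 74 young cells. The sum of the 4 had a median of 535 FPKM in old cells (quartiles 373 and 696) and 347 FPKM in young cells (quartiles 233 and 533). Igf1 exceeded that sum in 0 old and 4 young cells.

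**Figure D4:**
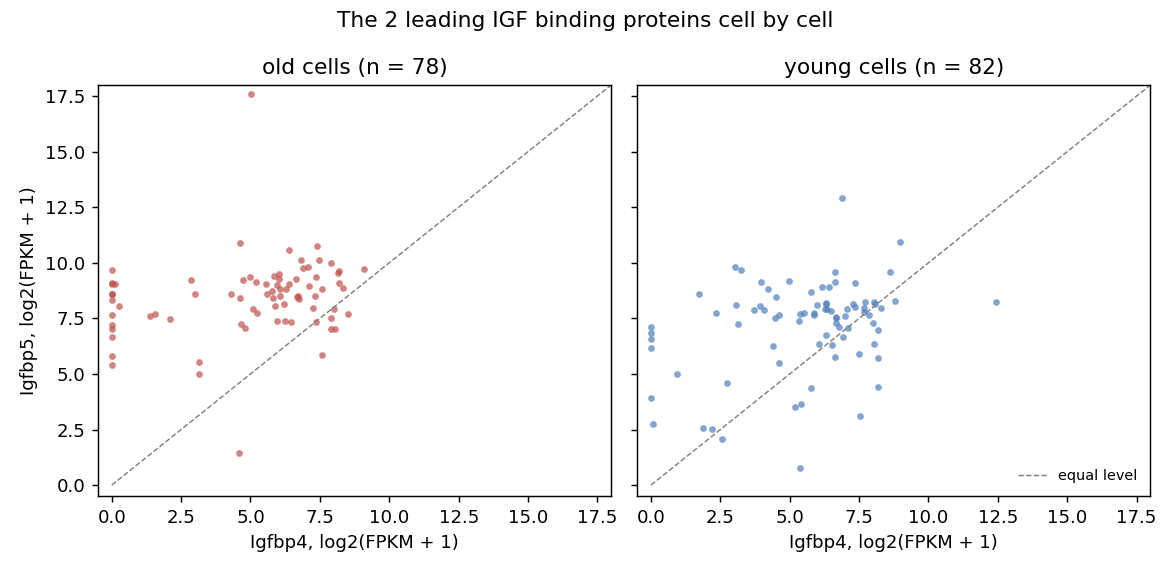
Each point is 1 cell, with log2(FPKM + 1) of Igfbp4 on the horizontal and of Igfbp5 on the vertical axis, old cells (n = 78) left and young cells (n = 82) right. The dashed line marks equal levels, and Igfbp5 lies above it in 70 of 78 old and 62 of 82 young cells.

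Of 6 fibroblast markers examined, Dcn, which encodes the matrix proteoglycan decorin, was at 1 FPKM in 52 old (66.7%) and 34 young cells (41.5%), with a difference of 1.76. Ly6a and Cd34 were in 1 old cell each and 0 young cells, and S100a4, Pi16 and Clec3b were in 0 cells of either age. The summed level of the list ran from 0 to 6790 FPKM in old and from 0 to 503.7 FPKM in young cells, and its part in the differences of Igf1, Ghr, Igfbp3 and Igfbp5 was not tested. Of 6 osteoblast markers 5 were listed at each age, with sums from 0 through a median of 280 to 25217 FPKM in old cells and from 0.0698 through a median of 534 to 26673 FPKM in young cells. Ibsp, which encodes bone sialoprotein, was listed in 69 old and 81 young cells, with a difference of -1.25. Col1a1 went the other way, in 14 old and 9 young cells. Sp7 was in 4 and 4 cells, Alpl in 5 and 7, Bglap in 1 and 0 and Dmp1 in 0 and 1. At least 3 of the 6 osteoblast markers were listed in 4 old and 3 young cells. Of the 8 stromal markers Kitl, the stem cell factor gene, was listed in 62 old and 78 young cells, with a difference of -1.38. The transcription factor gene Ebf1 was listed in 51 and 68 cells, with a difference of -0.905. Foxc1 went the other way, in 48 old and 45 young cells, with a difference of 0.76. Differences were -0.49 for Adipoq, -0.35 for Ebf3, -0.19 for Lepr, -0.04 for Cxcl12 and 0.07 for Pdgfra. The part of these markers in the same 4 differences was not tested either.

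Co-variation of the members within an age was weak, with medians near those of all pairs of genes. Spearman's rho over cells was taken for the 6 members listed in 25% of the cells of both ages, Igf1, Igf2r, Ghr, Igfbp4, Igfbp5 and Igfbp7, as a description without a test. The 15 pairs had a median rho of 0.20 in old cells (n = 78, from -0.07 to 0.35) and 0.13 in young cells (n = 82, from 0.00 to 0.25). A rho of 0.3 or more in both ages was reached by 0 of 15 pairs, against 3.54% of the 354061 pairs of genes with the same listing, and -0.3 or less in both by 0 pairs, against 0.0141% of pairs. The median over all pairs of genes was 0.18 in old and 0.17 in young cells. Genes measured in the same cell share its depth and gene number. Each of the 6 members rose in rank with the number of genes in the cell, with rho from 0.33 to 0.60 in old and 0.24 to 0.44 in young cells. Given that number, the partial rho of the 15 pairs had a median of -0.07 in old and 0.01 in young cells.

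The GH receptor and the ligand were also set against each other cell by cell. Igf1 and Ghr had a rho of 0.06 in old and 0.07 in young cells, and given the number of genes in the cell a partial rho of -0.24 and -0.07. Ghr was listed in 15 of 34 old cells with Igf1 (44.1%) and in 20 of 44 without it (45.5%), and in 38 of 59 young cells with Igf1 (64.4%) and 15 of 23 without it (65.2%). Cells with Igf1 had more genes, with medians of 1341.5 against 894 in old and 1216 against 879 in young cells. Igfbp3 was listed in 3 of 34 old cells with Igf1 and 7 of 44 without it, and in 29 of 59 young cells with Igf1 and 7 of 23 without it. All 3 of Igf1, Ghr and Igfbp3 were listed in 3 of 78 old cells (3.85%, interval 0.800 to 10.8) and 22 of 82 young cells (26.8%, interval 17.6 to 37.8), a combination chosen after the values were seen. Each of the 3 genes was by itself listed less often in old cells. Whether their joint share goes beyond that was not tested.

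The 2 leading binding proteins, Igfbp4 and Igfbp5, had the highest rho of the 15 pairs in young cells, 0.25, and 0.27 in old cells. With every cell rescaled to the same sum they were the 1 pair at or above 0.3 in both ages. Igf2r and Ghr reached 0.35 in old cells and 0.11 in young cells. The highest rho among all 45 pairs, 0.48 for Igfbp7 and Irs1 in old cells, was 0.20 in young cells and rests on 11 old and 14 young cells that listed Irs1. In each cell a median of 4 of the 10 members was listed in old (quartiles 3 and 5) and 5 in young cells (quartiles 4 and 6). That number followed the number of genes, with rho of 0.80 and 0.70.

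**Figure D5:**
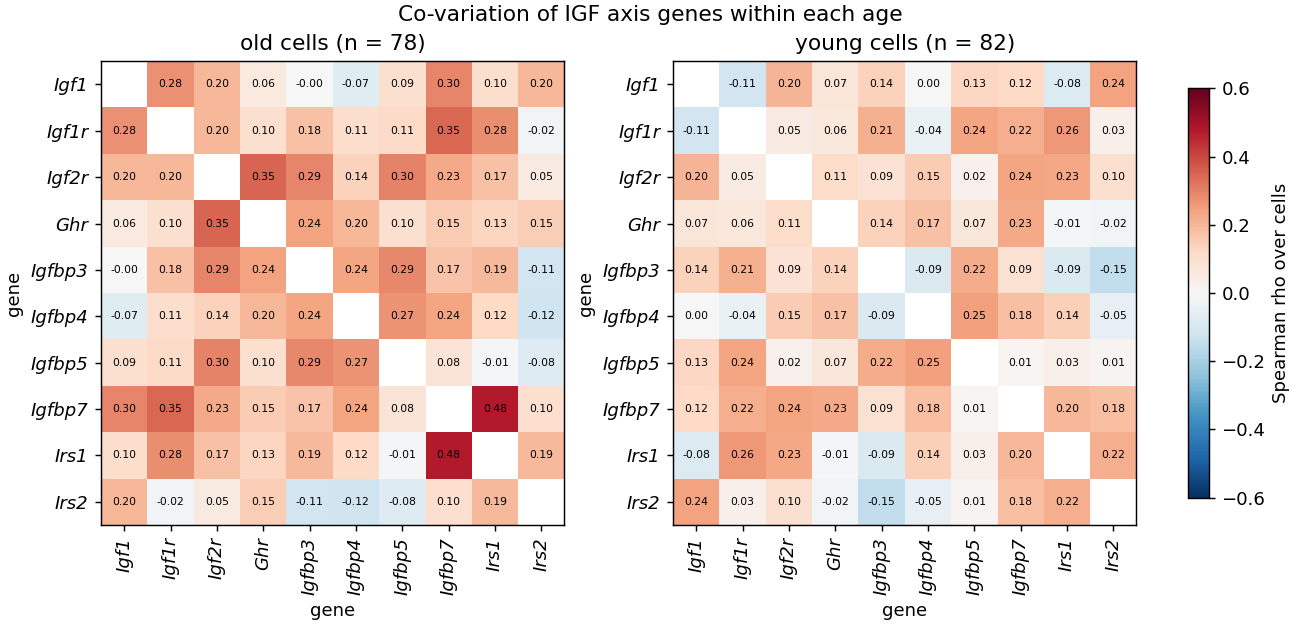
Each square gives Spearman's rho between 2 of the 10 genes over cells, red for positive and blue for negative values, in old cells (n = 78) left and young cells (n = 82) right. Most squares are pale, with 0.48 for Igfbp7 and Irs1 in old cells as the highest value.

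The genes most like each of the 6 members, by the mean of the rho in old and in young cells, came from a search over 841 genes and were no members themselves. Igf1 was nearest to Gng5 (mean rho 0.42), a G protein subunit, Rarres2 (0.41), which encodes the adipokine chemerin, and Tmbim6 (0.40), a membrane protein of the endoplasmic reticulum. Ghr was nearest to Nisch (0.47), Zmym1 (0.43) and Abcc5 (0.40), a transporter. Igf2r was nearest to Uqcr11 (0.41), a subunit of respiratory complex III, Tmed10 (0.40), a cargo receptor of the secretory path, and Ogn (0.40), the matrix proteoglycan osteoglycin. Igfbp4 was nearest to the joint row of Mir1903,Nrp1 (0.43), whose value cannot be given to either gene, Fam46a (0.33) and Serpinh1 (0.33), a collagen chaperone. Igfbp5 was nearest to Ptma (0.41), Gapdh (0.37) and Serinc3 (0.36), and Igfbp7 to Eif4a1 (0.47), a translation initiation helicase, Snx22 (0.45) and Psap (0.43), the lysosomal saposin precursor. In young cells rho was under 0.3 for Fam46a (0.19) and Serpinh1 (0.299) with Igfbp4. The same held for Ptma (0.27) and Serinc3 (0.26) with Igfbp5, and for Abcc5 (0.27) with Ghr. In old cells these pairs had a rho of 0.48, 0.36, 0.55, 0.46 and 0.54, in that order. The other pairs were at 0.3 or above in both ages. Each of the 18 genes also rose in rank with the number of genes in a cell, with rho from 0.30 to 0.64 in old and 0.34 to 0.59 in young cells.

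Other genes of the axis were examined through a list of 61, of which 60 had a row of their own, 7 were listed in 25% of the cells of an age, and 16 reached 1 FPKM in 0 cells. The 16 included the ligands Ins1, Ins2 and Gh, the binding proteins Igfbp1 and Igfbp2, and Igfals, the serum partner of Igfbp3. Igf2, the other IGF, was listed in 0 old and 2 young cells and Insr, the insulin receptor, in 4 and 2. Of the 7 genes Ctsd and Grb10 passed the 25% limit only through young cells and Rps6kb1 only through old cells, which favours their direction. Differences of -1 or below were found for 2 of the 7, Pappa among them, and 1 or above for 0, beside the same 4.87% and 3.77% of the 1272 genes.

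Pappa, the protease that frees IGFs from Igfbp4 and Igfbp5, was listed in 40 of 78 old cells (51.3%, interval 39.7 to 62.8) and 62 of 82 young cells (75.6%, interval 64.9 to 84.4). Its median was 1.40 FPKM in old and 11.4 FPKM in young cells, and its difference was -1.13. Pappa and Igfbp4 were listed together in 35 old (44.9%) and 58 young cells (70.7%). Igfbp4 itself was listed in 82.1% of old and 91.5% of young cells. Whether the joint shares go beyond those of the single genes was not tested. Pik3r1, the regulatory subunit of PI3K, was listed in 28 old (35.9%) and 43 young cells (52.4%), with a difference of -0.83. Differences were -0.47 for Grb10, an adaptor that restrains the receptor, and -0.45 for Ctsd, a lysosomal protease. They were 0.18 for Rps6kb1, the S6 kinase, and 0.27 for Socs2, the feedback inhibitor of growth hormone signalling.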

How the data were processed

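RNA of 160 single cells was measured on the Fluidigm C1 system with SMARTer amplification, per the labels' protocols. The authors deposited 1 table of FPKM values by gene and cell. The build mm9 and Cufflinks 2.1.1 appear in the submitters' processing notes. The sources used here do not state the annotation, the filters or the handling of shared reads. Without read numbers the depth of a cell is unknown and count models do not apply. The 7751 of 31199 rows that have no gene name were not used. Rows of one name were summed. An FPKM of 0 can be a failed estimate, since Gapdh was at 0 in 91 of 160 cells while Actb and B2m were at 1 FPKM or more in 160. A gene is therefore described as listed in a cell at 1 FPKM or more, and 0 does not show absence.

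The measure of age was the difference of mean log2(FPKM + 1), old minus young, in place of a ratio of means, which single cells can set. Genes listed in 25% of the cells of an age served as background. The middle range of gene numbers is the interquartile range over all cells. Named genes were the 10 members, the genes of the pathway list past the 25% limit, and the 3 genes with the highest mean rho for each member listed in 25% of both ages. A few others were named after their values were seen, and some genes of the list are not reported here. The members and lists were chosen with earlier results of these data known. Promoters came from RefSeq (GRCm38.p6), another build than that of the table, all 10 members matched by symbol, and no position was carried between builds. Wells with several cells were set aside by microscopy per the labels, and no doublet caller was run. No 2 columns were identical. The steps were tested on simulated data. Python 3.11.15, pandas 2.3.3 and scipy 1.17.1 were used.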

Additional observations from a re-analysis of the deposited data

How the results depend on the processing

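Igf1, Ghr and Igfbp3 stayed below 0 and Igfbp5 above 0 under all 7 alternatives for the age difference. Their ranges were from -2.67 to -0.85, from -1.87 to -0.75, from -2.32 to -0.48 and from 1.14 to 3.12. The 3.12 of Igfbp5 came from the ratio of mean FPKM and rests on 1 old cell, and its highest value otherwise was 1.76. Igf1r and Igfbp4 also stayed below 0 and Irs2 above it, whereas Igf2r and Irs1 took both signs, and Igfbp7 turned to -4.70 by the ratio of mean FPKM alone, a value that 1 young cell sets. The median over the 10 members moved to -0.87 by that ratio, in place of -0.21. The number of members lower in old cells ran from 5 to 7. At 10 FPKM in place of 1, 1 member had a share lower in old cells by 20 points, in place of 2; the cause was not tested. With every cell rescaled to the same sum, 1 pair of members reached a rho of 0.3 in both ages, in place of 0; the cause was not tested. No paired analysis was possible because cell numbers are only names, each age is 1 sample, and no result comes from a test. FPKM without read numbers limits low genes, for which 0 and a missed gene cannot be told apart.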

Other observations

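Several genes of the axis were listed in under 25% of the cells of both ages and are given here as values, chosen after they were seen. Stc1, which encodes stanniocalcin 1, an inhibitor of pappalysin, was listed in 8 of 78 old cells (10.3%, interval 4.53 to 19.2). Young cells listed it in 0 of 82 (interval 0 to 4.399), and 3 counts of 82 would be a share of 3.66%. Foxo1, a transcription factor that Akt keeps out of the nucleus, was listed in 5 of 78 old cells (6.41%, interval 2.11 to 14.3) and 14 of 82 young cells (17.1%, interval 9.66 to 27). Stat5b, which carries the growth hormone signal to the nucleus, was listed in 11 of 78 old cells (14.1%, interval 7.26 to 23.8) and 3 of 82 young cells (3.66%, interval 0.761 to 10.3), and its relative Stat5a in 18 and 15 cells. The kinase Akt2 was listed in 4 old and 0 young cells, with the same interval in young cells, and Akt1 in 3 old and 6 young cells. No difference among these genes was tested.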
